A study of Mus musculus with 8 samples.

Results

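Cathepsin and vacuolar ATPase genes were described in hepatic macrophages of mice with acetaminophen injury, 42 genes in all of 22180 measured. A rule on gene symbols chose them, and it was set with earlier results of these data known. It took in 17 cathepsin genes (Cts followed by a letter, except the neutrophil serine protease Ctsg) and 25 genes whose symbol begins with Atp6v or Atp6ap. Total RNA had been hybridised to 8 Affymetrix arrays, 4 from mice given recombinant transferrin (rTF, 25 µg) and 4 from mice given recombinant CPS1 (rCPS1, 50 µg), a urea cycle enzyme of hepatocyte mitochondria. All animals were male FVB/N mice aged 8 weeks, which received the protein by tail vein 12 h before 350 mg/kg acetaminophen into the peritoneum. There was no uninjured group and no group without protein, and the protein and its amount changed together. Every sample title names Mouse1, and no label says that replicates are different animals. The p-values therefore speak of the spread among these arrays alone, and that spread could be technical.

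Lysosomes degrade what macrophages engulf. Cathepsins are the main proteases of that compartment, and most of them need an acid pH to mature and to cut. The acid comes from the vacuolar ATPase, a rotary pump with a cytosolic V1 part that splits ATP and a membrane V0 part that carries protons. Many genes of both kinds hold a promoter element bound by TFEB and its relatives, transcription factors known to drive lysosomal genes. After acetaminophen, macrophages of the liver clear dead hepatocytes, a task that passes through this compartment.

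The core of that element, TCACGTGA, was looked for in promoter windows of 300 bases (250 before the start and 50 from it on) from RefSeq, build GRCm38.p6. The motif reads the same on both strands and holds the shorter CACGTG within it. A window was found for 31 of the 42 genes. The motif was in 5 of those 31 (16.1%), against 304 of all 27025 genes in the table (1.12%). Among genes whose level exceeded the median array row, the motif was in 5 of 24 (20.8%), against 203 of 9680 measured genes (2.10%). It was in 2 of 13 cathepsin genes and 3 of 18 pump genes. Most genes with a window lacked it. The 5 sites are shown because they lie in genes of both kinds and the rule on symbols did not use sequence. The element is known from lysosomal genes, so a higher share than in all genes is no new result. Each stretch has 30 bases, 5′ to 3′ on the gene's strand, with the motif in capitals.
Ctsa, chr2:164833757-164833786 (+): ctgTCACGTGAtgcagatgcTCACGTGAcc
Ctsd, chr7:142387908-142387937 (-): tcgcccgcgtcTCACGTGAcccgttgaggg
Atp6v1a, chr16:44139373-44139402 (-): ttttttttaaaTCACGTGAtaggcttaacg
Atp6v0d1, chr8:105566050-105566079 (-): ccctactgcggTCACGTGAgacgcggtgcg
Atp6v0e, chr17:26676387-26676416 (+): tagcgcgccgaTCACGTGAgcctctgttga

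Ctsa held the motif 2 times, beginning 13 bases before its start and 4 bases after it. In Ctsd the motif began 99 bases before the start and in Atp6v1a 132 bases before it, whereas in Atp6v0d1 it began 4 bases before the start and in Atp6v0e 2 bases after it. The shorter CACGTG was in 8 of the 31 genes (25.8%), the further ones being Atp6v0b, Ctsf and Ctsl, against 8.09% of all genes. Above the median row it was in 8 of 24 (33.3%), against 11.5% of measured genes above that row. Of the other lysosomal genes considered further on, 6 of 47 with a window held TCACGTGA (12.8%). A match describes these letters and is not shown to be a bound site.

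Across the cathepsin and pump genes, rCPS1 and rTF arrays were close together. With limma, 0 of the 42 genes had an adjusted p under 0.05, and the same held for all 22180 genes tested (0%). At an unadjusted p under 0.05, 1 of the 42 was counted (higher with rCPS1), against 4.67% of all genes in either direction and 1.88% in that one. The groups did not overlap for 1 of the 42 genes, against 2.92% of all genes. That gene was lower with rCPS1, and 1.97% of all genes were lower without overlap. Both counts are near the share in all genes. Of the 42, 28 were lower with rCPS1 and 14 higher, against 54.4% lower among all genes. The median log2 difference, rCPS1 minus rTF, was -0.064 over the cathepsins and -0.0073 over the pump genes, against -0.018 over all genes tested.

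Within these arrays, the spread was small enough to bound most of these differences, as it was for most genes tested. Like the p-values, the intervals rest on that spread, which could be technical. The median within-group SD was 0.18 (log2) over the 33 genes whose level exceeded the median array row, against 0.21 over the 12315 genes above that level. For 27 of those 33 genes the whole 95% interval of the difference lay within 1.5-fold in either direction, which was so for 74.2% of genes above that level. The other 9 of the 42 genes lay below that level and may be near background. They were Ctsm, Ctsq and Ctsr among the cathepsins and, on the pump side, Atp6v0a4, Atp6v0d2, Atp6v1b1, Atp6v1c2, Atp6v1g3 and Atp6ap1l, most of which are known from kidney, placenta or other tissues.

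**Figure D1:**
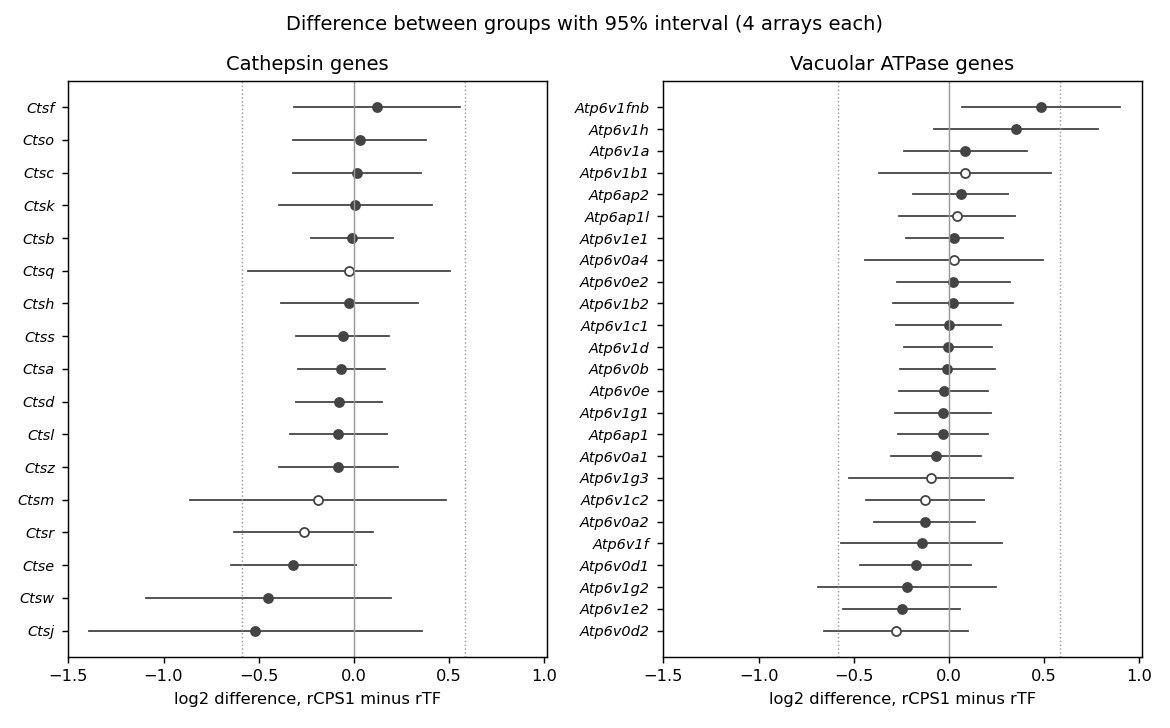
Log2 difference, rCPS1 minus rTF (x axis), of each cathepsin gene (left) and each vacuolar ATPase gene (right), with its 95% interval from limma; filled points lie above the median array row, open points below it, and dotted lines mark 1.5-fold. All intervals but that of Atp6v1fnb include 0, and the widest, of Ctsj, runs from -1.39 to 0.36.

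The broad cysteine cathepsins that macrophages use to digest cargo differed by less than 0.1 on the log2 scale. Ctsb (probe set 17301213), an endopeptidase that also trims peptides from their ends, was at 12.34, 12.35, 12.28 and 12.35 on the rTF arrays and at 12.24, 12.40, 12.36 and 12.27 on the rCPS1 arrays. The rCPS1 arrays lay on both sides of the rTF arrays. Its difference was -0.011 ± 0.097 (SE), with a 95% interval of -0.23 to 0.21, or at most 1.17-fold either way, the narrowest of the 33 genes above the median row. Ctsl, an endopeptidase of lysosomes, went from 11.14 ± 0.14 (SD, n = 4) to 11.06 ± 0.11, and Ctss, which stays active at neutral pH and cuts the invariant chain of class II molecules, from 11.71 ± 0.12 to 11.65 ± 0.092. The intervals were -0.33 to 0.17 for Ctsl and -0.30 to 0.19 for Ctss, and the arrays of both groups overlapped for each. Ctsz, a carboxypeptidase, went from 10.82 ± 0.24 to 10.74 ± 0.12, with rTF replicate 1 at 11.18 above the other 7 arrays (10.61 to 10.90).

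The exopeptidases Ctsc and Ctsh varied more between arrays of 1 group than between the groups. Ctsc, which activates granule serine proteases by removing dipeptides, was at 10.80, 10.62, 10.26 and 10.62 with rTF and at 10.69, 10.36, 10.83 and 10.48 with rCPS1. Ctsh, an aminopeptidase, was at 8.38, 8.44, 8.10 and 8.30 with rTF and at 8.33, 8.02, 8.69 and 8.07 with rCPS1. In both genes rCPS1 replicate 3 was the highest of all arrays. The differences were 0.017 ± 0.15 (SE) for Ctsc and -0.024 ± 0.16 for Ctsh. Ctsk, the collagen-cutting cathepsin of osteoclasts, which lies next to Ctss in the genome, differed by 0.0074 ± 0.18 with levels of 5.01 to 5.70. Ctso and Ctsf, less studied members, differed by 0.031 ± 0.16 and 0.12 ± 0.20.

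Ctsw, a cathepsin known from natural killer and cytotoxic T cells, had the second largest difference among the cathepsins. It was at 6.11, 7.29, 6.13 and 6.39 on the rTF arrays and at 6.21, 5.91, 6.51 and 5.50 on the rCPS1 arrays. The highest value was in rTF replicate 2 and the lowest in rCPS1 replicate 4, and the other 6 arrays of both groups overlapped. The difference was -0.45 ± 0.29 (SE), with an interval of -1.09 to 0.19 and a limma adjusted p of 0.980. Without rTF replicate 2 it was -0.18.

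Of the aspartic cathepsins, Ctsd had a narrow interval and Ctse was the gene whose groups did not overlap. Ctsd (probe set 17498099), the main aspartic protease of lysosomes, was at 11.64, 11.72, 11.64 and 11.59 with rTF and at 11.61, 11.66, 11.58 and 11.44 with rCPS1. Its difference was -0.077 ± 0.10 (SE), at most 1.23-fold either way within the 95% interval. Ctse (probe set 17217035), an endosomal aspartic protease of immune and epithelial cells, was at 9.33, 9.75, 9.10 and 9.17 with rTF and at 9.01, 9.04, 9.06 and 8.98 with rCPS1. Every rCPS1 array lay below every rTF array, but the gap between the nearest arrays was small beside the spread of the rTF arrays. The difference was -0.32 ± 0.15, with an interval of -0.64 to 0.010, an unadjusted limma p of 0.0564 and an adjusted p of 0.980. Without rTF replicate 2 it was -0.18. Ctsa, the serine carboxypeptidase that also shields lysosomal neuraminidase, went from 10.32 ± 0.072 (SD, n = 4) to 10.25 ± 0.094, with an interval of -0.29 to 0.16.

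The cathepsins Ctsj, Ctsm, Ctsq and Ctsr belong to a rodent family known from the placenta. All 4 differences were below 0, from -0.52 (Ctsj) to -0.024 (Ctsq), with intervals that included 0. Ctsj had the largest difference of any cathepsin and also the widest spread, from 2.71 in rCPS1 replicate 3 to 4.98 in rCPS1 replicate 2. Its difference was -0.14 without the first of these arrays and -0.89 without the other. In rTF replicate 1 Ctsm stood at 2.41 and Ctsq at 2.12, whereas the remaining rTF arrays had 0.94 to 0.998 and 0.97 to 1.16. Without that array their differences were 0.17 and 0.24. Ctsj, Ctsq and Ctsr are neighbours in the genome, and the family is so alike in sequence that probes could pick up more than 1 member, which leaves these values uncertain.

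Among V1 subunits, those that form the ATP-splitting ring were close between the groups. Atp6v1a (probe set 17330523), the catalytic A subunit, was at 9.75, 9.20, 9.58 and 9.55 with rTF and at 9.42, 9.78, 9.74 and 9.49 with rCPS1. Its lowest array was rTF replicate 2, and the groups overlapped. The difference was 0.087 ± 0.15 (SE). Atp6v1b2, the B subunit of most cells, was at 10.78, 10.31, 10.41 and 10.47 with rTF and at 10.42, 10.73, 10.61 and 10.31 with rCPS1, a difference of 0.022 ± 0.14. Its counterpart Atp6v1b1, known from kidney, lay at 1.87 to 2.86.

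Atp6v1h, the H subunit that couples V1 to V0 and regulates the pump, had the largest difference of any true subunit. Its levels were 8.33, 7.51, 8.22 and 8.23 with rTF and 8.21, 8.47, 8.72 and 8.31 with rCPS1. A single low array, rTF replicate 2, stood below the other 7, which ran from 8.21 to 8.72. The difference was 0.35 ± 0.19 (SE), with an interval of -0.077 to 0.79 and a limma adjusted p of 0.980, and without rTF replicate 2 it was 0.17. The stalk and shaft subunits in wide use had small differences with overlapping groups: -0.0013 ± 0.12 for Atp6v1c1, -0.0044 ± 0.10 for Atp6v1d, 0.028 ± 0.11 for Atp6v1e1 and -0.030 ± 0.11 for Atp6v1g1. Atp6v1c1 reached 9.21 in rTF replicate 1, above the remaining rTF arrays (8.81 to 8.85). Forms known mainly from testis or brain, Atp6v1e2 and Atp6v1g2, differed by -0.25 ± 0.14 and -0.22 ± 0.21.

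Atp6v1fnb was the gene with an unadjusted p under 0.05. The name pattern takes it in, but it is the gene next to Atp6v1f and not a known subunit of the pump. It was at 5.73, 5.06, 5.49 and 5.16 with rTF and at 5.67, 6.27, 5.72 and 5.72 with rCPS1. The groups overlapped through rTF replicate 1, and rCPS1 replicate 2 stood above its group. The difference was 0.48 ± 0.19 (SE), or 1.40-fold higher, with an unadjusted limma p of 0.0272 and an adjusted p of 0.980. Atp6v1f itself, the F subunit of the central shaft, differed by -0.14 ± 0.19.

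**Figure D2:**
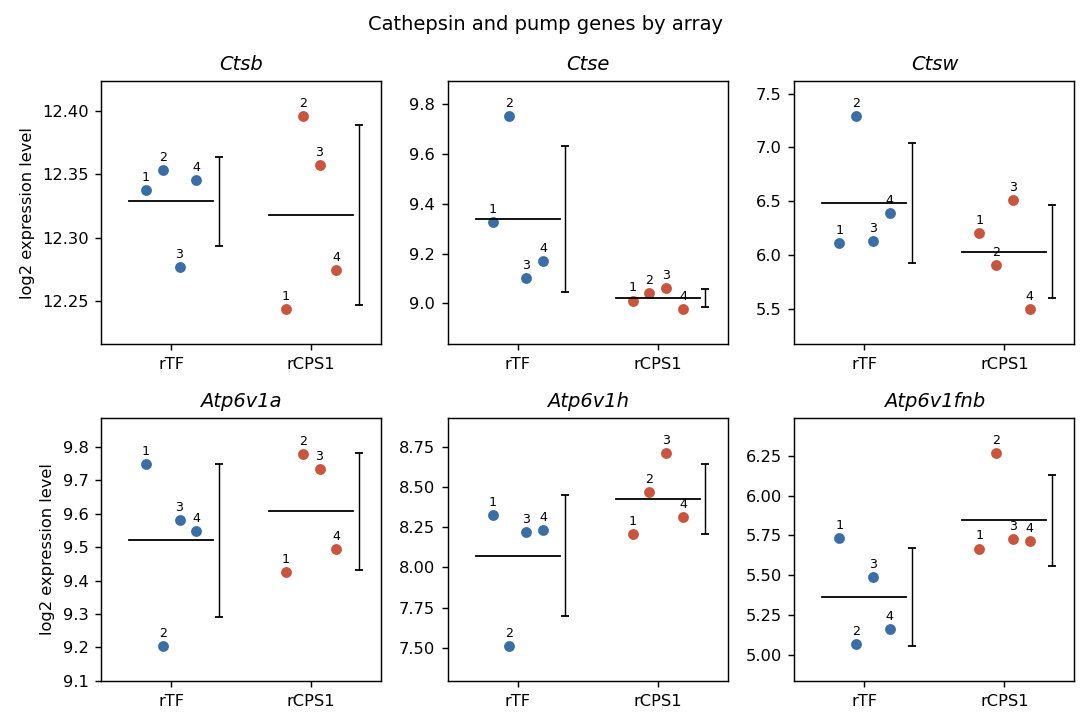
Log2 expression level (y axis, its own scale in each panel) of 6 genes on the 4 rTF and 4 rCPS1 arrays; numbers are replicates, lines are group means and bars 1 SD. Ctse separates the groups by a narrow gap, whereas Ctsw and Atp6v1h have an rTF replicate 2 apart from the other arrays.

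Of the V0 subunits, 6 of 8 measured were lower with rCPS1, by amounts within the spread of arrays. Atp6v0d1, the d subunit that joins the shaft to the membrane ring, was at 9.35, 9.22, 9.31 and 9.17 with rTF and at 9.20, 9.29, 8.78 and 9.09 with rCPS1. The low array was rCPS1 replicate 3, and without it the difference of -0.17 ± 0.13 (SE) was -0.071. Its counterpart in osteoclasts and some macrophages, Atp6v0d2, lay below the median row at 1.91 to 2.65 and differed by -0.28 ± 0.17. Among the a subunits, which place the pump in a given membrane, Atp6v0a1 differed by -0.066 ± 0.11 and Atp6v0a2, a form of Golgi and endosomes, by -0.13 ± 0.12. The highest Atp6v0a2 level, 8.75, was in rTF replicate 2, and the other 7 arrays ran from 8.30 to 8.51. Without that array the difference was -0.043. The ring subunit gene Atp6v0b differed by -0.0073 ± 0.11, Atp6v0e by -0.027 ± 0.10 and Atp6v0e2 by 0.024 ± 0.13. Atp6v0c, the main ring subunit, was not analysed here. The a3 subunit of macrophages and osteoclasts is encoded by Tcirg1, which the name pattern leaves out. Looked at after its values were seen, Tcirg1 was at 9.62, 9.13, 9.10 and 9.14 with rTF and at 9.25, 9.31, 9.30 and 9.08 with rCPS1, a difference of -0.016 ± 0.14.

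The accessory proteins were steady as well. Atp6ap1, which helps assemble V0, went from 10.20 ± 0.12 (SD, n = 4) to 10.16 ± 0.060. Atp6ap2, also known as the prorenin receptor, was at 9.67, 9.57, 9.70 and 9.76 with rTF and at 9.62, 9.84, 9.87 and 9.61 with rCPS1. The lowest array was rTF replicate 2 and the highest rCPS1 replicate 3, the groups overlapped, and the difference was 0.062 ± 0.11 (SE).

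Proteases were then set against pump subunits on each array. Since array levels of different genes are not comparable, each gene's deviation from its own mean over the 8 arrays was used, in log2. Over all members, the mean deviation of the 17 cathepsins minus that of the 25 pump genes was 0.091, 0.18, -0.051 and -0.014 on the rTF arrays and -0.030, -0.021, -0.066 and -0.087 on the rCPS1 arrays. Both rTF replicates 1 and 2 lay above all other arrays, and rTF replicates 3 and 4 lay within or next to the range of the rCPS1 arrays. The group means were 0.051 ± 0.10 (SD, n = 4) and -0.051 ± 0.031, a difference of -0.10, and of -0.060 without rTF replicate 2. With the genes below the median row left out, rTF replicate 1 turned to -0.079 and rTF replicate 2 was at 0.25.

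Among genes above the median row, the classes differed in which array was their highest. rTF replicate 1 was the highest array for 9 of 19 pump genes, among them 6 of 10 V1 subunits, and for 2 of 14 cathepsins, against 11.2% of all genes above that level. rTF replicate 2 was the highest for 6 of the 14 cathepsins and the lowest for 5 of the 19 pump genes, against 27.1% and 17.0% of all genes. The mean deviation of the 10 V1 subunits was 0.17 in rTF replicate 1 and -0.097 in rTF replicate 2, and that of the 14 cathepsins 0.048 and 0.18. Without Ctse, Ctsj and Ctsw, a choice made after their values were seen, the remaining 11 cathepsins were at -0.0011 and 0.056 in those arrays. The mean difference, rCPS1 minus rTF, was -0.11 over the 14 cathepsins and -0.020 over those 11. Over all genes above the median row it was -0.0055. A principal component analysis over all genes set rTF replicate 2 apart: its score on component 1 (22.9% of variance) was 42.6, against -23.1 to 7.04 for the rest.

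**Figure D3:**
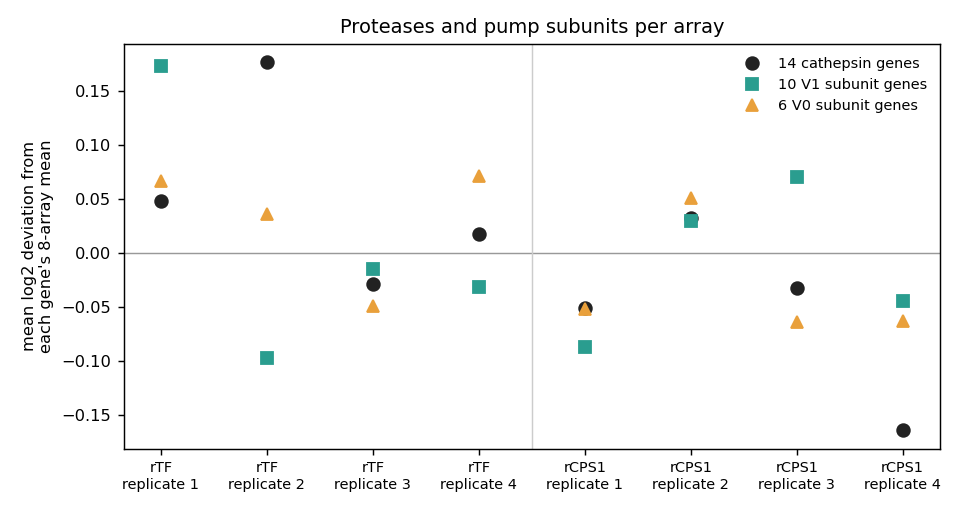
Mean log2 deviation from each gene's 8-array mean (y axis) on each array (x axis) for cathepsins, V1 subunits and V0 subunits above the median row. V1 subunits are highest in rTF replicate 1 (0.17) and cathepsins in rTF replicate 2 (0.18), and the rTF and rCPS1 arrays overlap for each class.

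Markers of other liver cells were present beside those of macrophages. The mean log2 level of 11 Kupffer cell markers was 9.11 to 9.69 with rTF and 9.20 to 9.99 with rCPS1, and all 11 lay above the median row. The 12 sinusoidal endothelial markers averaged 11.16 to 11.43 and 11.21 to 11.39, and the 12 measured of 13 T and NK cell markers 6.14 to 7.42 and 5.85 to 6.39. Of the marker lists, neutrophil and monocyte markers differed most between the groups, by means of -0.95 and -0.70 (log2, rCPS1 minus rTF). Of these, 9 of 12 and 9 of 10 were lower at an unadjusted limma p under 0.05, against 2.79% of all genes. The Kupffer, endothelial and T and NK cell markers were set against each of the 33 genes above the median row, as were the 10 monocyte markers. This gave 132 relations over 8 arrays, and neutrophil markers were not among them. These relations were chosen after the values were seen, and the arrays may not be independent. In bulk RNA, fewer cells of a type and less RNA per cell cannot be told apart.

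At an unadjusted permutation p under 0.05 for Pearson's r, 13 of the 132 relations were counted. Only cathepsin and pump genes above the median row were used, so no share over all genes stands beside that count. Whether other genes follow the same markers as closely was not tested, for this relation or those named further on. The principal component analysis over all genes had also set rTF replicate 2 apart. After adjustment only Ctsw passed among the 132 relations, and by Pearson's r alone. Its level followed the T and NK cell markers with r = 0.96 (exact permutation p = 0.000298, adjusted p = 0.0393 over 132 relations). Spearman's rho was 0.95 (exact permutation p = 0.00114, adjusted p = 0.0753). Without rTF replicate 2 and rCPS1 replicate 4, the arrays farthest from the median of the markers, r was 0.84, and with group means removed it was 0.95. The T and NK cell markers themselves averaged 7.42 in rTF replicate 2, against 6.14 to 6.46 in the remaining rTF arrays. Their part in the Ctsw difference was not tested.

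Ctsc followed the Kupffer cell markers without passing. Its r was 0.88 (exact permutation p = 0.00504, adjusted p = 0.233) and its rho 0.95 (exact permutation p = 0.00114, adjusted p = 0.0753), and r was 0.85 without rCPS1 replicates 1 and 3. For Ctsh and the same markers r was 0.77 (exact permutation p = 0.0281, adjusted p = 0.356). Ctse and the T and NK cell markers had r = 0.87 (exact permutation p = 0.0317, adjusted p = 0.356), but that rested on 2 arrays, since without rTF replicate 2 and rCPS1 replicate 4 r was 0.036. Against the endothelial markers Atp6v1d had r = -0.86 (exact permutation p = 0.00707, adjusted p = 0.233) and -0.96 without rTF replicate 1 and rCPS1 replicate 3. Ctsz had r = -0.86 with them as well (exact permutation p = 0.00605, adjusted p = 0.233), and -0.23 without those arrays. Other V1 subunits also had a negative r with the endothelial markers, among them Atp6v1c1 (-0.82), Atp6v1b2 (-0.77) and Atp6v1a (-0.75). Without those arrays these were -0.28, -0.51 and -0.70. Atp6v1e1 (0.27) and Atp6v1g2 (0.41) had a positive r.

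**Figure D4:**
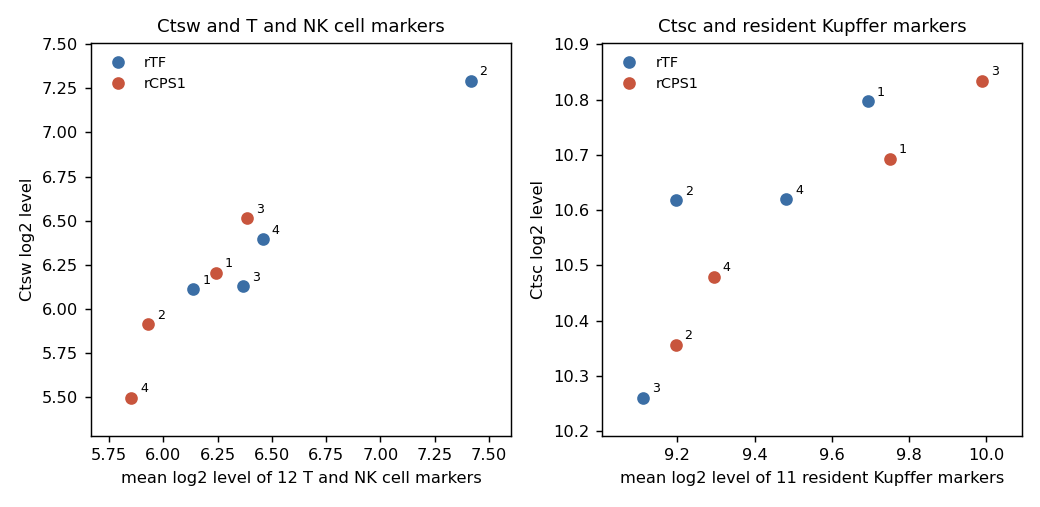
Left, Ctsw log2 level (y axis) against the mean log2 level of 12 T and NK cell markers (x axis); right, Ctsc against 11 Kupffer cell markers. Each point is an array with its replicate number, and the highest Ctsw level (7.29, rTF replicate 2) is on the array with the highest T and NK cell markers.

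Among cathepsin inhibitors, which are not members, Cst7 and Stfa2l1 had larger differences than any of the 42 genes. Of 11 measured genes, 7 were lower with rCPS1 and 4 higher, and 5 of the 11 lay below the median row. The median difference was -0.10, and 3 had an unadjusted limma p under 0.05, all lower, against 2.79% of all genes in that direction. These were Cst7, Stfa2l1 and Spink5. The groups did not overlap for the same 3 of 11, against 1.97% of all genes that were lower without overlap. This list and those that follow were drawn up with earlier results of these data known, so their counts are no test of the lists. Cst7 (cystatin F), an inhibitor of cathepsins in immune cells that acts on Ctsc, was at 5.31, 5.97, 5.58 and 5.63 with rTF and at 5.08, 4.48, 4.89 and 5.23 with rCPS1. Every rCPS1 array lay below every rTF array. The difference was -0.70 ± 0.19 (SE), with a limma adjusted p of 0.923. Stfa2l1, a relative of stefin A, went from 7.55 ± 0.23 (SD, n = 4) to 6.46 ± 0.76, a difference of -1.09 ± 0.32 with an adjusted p of 0.980, and its groups did not overlap. Stefin genes have near relatives that share sequence with it, which makes its value uncertain. Spink5, counted among the 3, is an inhibitor of serine proteases. It differed by -0.42 ± 0.14 and lay below the median row, at 1.77 to 2.70, where it may be near background. The widely expressed inhibitors Cst3 (cystatin C) and Cstb, chosen after their values were seen, differed by 0.015 ± 0.12 and -0.10 ± 0.15. Beside these, 12 neutrophil markers averaged 5.81 to 6.50 with rTF and 4.76 to 5.53 with rCPS1, and 10 monocyte markers 8.74 to 9.15 and 8.09 to 8.26. Of the neutrophil markers, 10 lay above the median row, and of the monocyte markers all 10. Their part in the inhibitor differences was not tested.

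Other lysosomal genes were lower somewhat more often than not, by small amounts. Of 30 measured hydrolases, 21 were lower and 9 higher with a median of -0.044, and of 26 membrane, sorting and regulator genes 19 were lower and 7 higher with a median of -0.062, against 54.4% lower among all genes. Naglu, an enzyme of heparan sulfate breakdown, was at 7.88, 7.97, 7.72 and 7.86 with rTF and at 7.36, 7.67, 7.62 and 7.41 with rCPS1, so that the groups did not overlap, and differed by -0.34 ± 0.12 (SE). Gm2a, the activator of ganglioside breakdown, was at 11.40, 11.35, 11.17 and 11.28 with rTF and at 11.11, 10.98, 11.08 and 11.02 with rCPS1. Its groups did not overlap either, and its difference was -0.25 ± 0.10. Both had an unadjusted limma p under 0.05 (0.0146 for Naglu and 0.0332 for Gm2a) and an adjusted p of 0.980, and they were the only genes of their lists with such a p, 1 of 30 and 1 of 26, near the 2.79% of all genes that were lower at that p. The groups also did not overlap for Manba, a mannosidase (0.16 ± 0.10), for the membrane protein gene Lamp2 (0.096 ± 0.099) and for Npc2, which carries cholesterol (-0.16 ± 0.097). These 3 were named after their values were seen, and the lists' 2 of 30 and 3 of 26 without overlap stand against 2.92% of all genes. The next by p were Napsa (-0.30 ± 0.14) and Arsb (-0.31 ± 0.16) among hydrolases, and the proton-permeable channel gene Tmem175 (-0.31 ± 0.16) and Flcn (-0.22 ± 0.12) among the others.

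**Figure D5:**
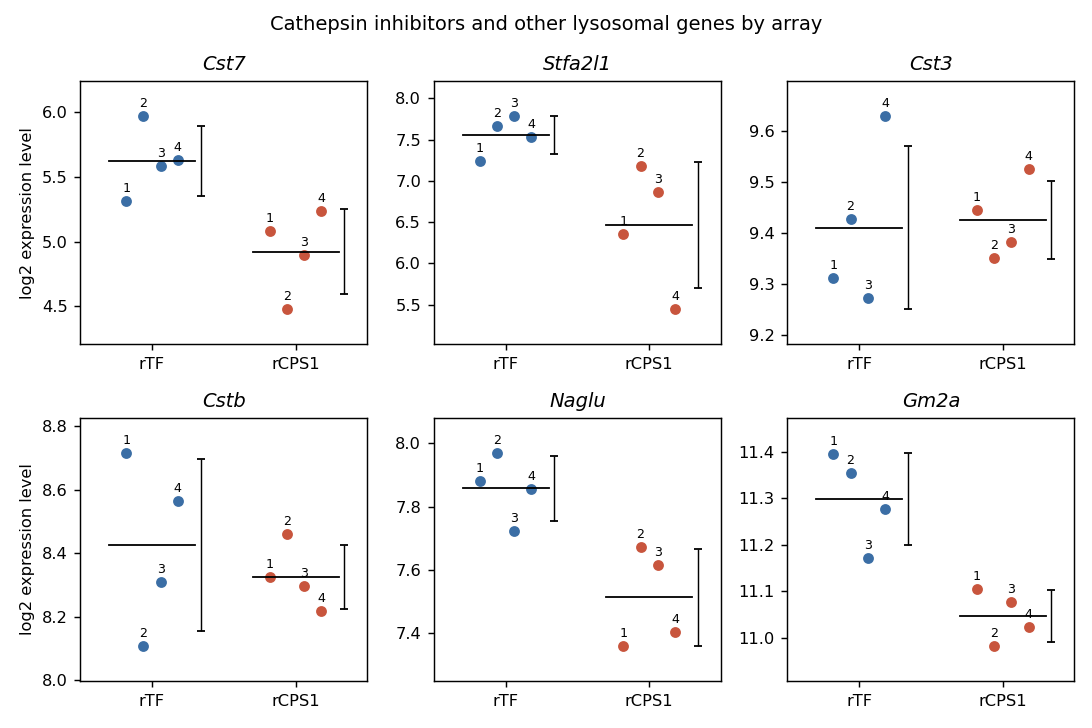
Log2 expression level (y axis, its own scale in each panel) of 4 cathepsin inhibitor genes and 2 other lysosomal genes on the 4 rTF and 4 rCPS1 arrays; numbers are replicates, lines are group means and bars 1 SD. The groups do not overlap for Cst7, Stfa2l1, Naglu and Gm2a, and overlap for Cst3 and Cstb.

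Assembly factors and other acidification genes showed no common direction. Of 17 measured, 8 were lower and 9 higher, with a median of 0.031. Tldc2, of a protein family that binds the pump, was at 3.81, 3.69, 4.11 and 3.85 with rTF and at 4.37, 4.98, 4.05 and 4.15 with rCPS1, and was the only one with an unadjusted limma p under 0.05 (0.0254, adjusted p = 0.980), 1 of 17 against 1.88% of all genes in that direction. Its groups overlapped through rCPS1 replicate 3, and the difference was 0.52 ± 0.20 (SE). Its relative Meak7 differed by 0.20 ± 0.12, and Ccdc115, a pump assembly factor, by -0.29 ± 0.19.

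The genes with the promoter element had small differences of either sign. In log2 they were -0.064 for Ctsa, -0.077 for Ctsd, 0.087 for Atp6v1a, -0.17 for Atp6v0d1 and -0.027 for Atp6v0e. Genes for the factors that bind such elements were looked at after their values were seen. Tfeb differed by -0.031 ± 0.10 (SE), Tfe3 by -0.14 ± 0.14, Mitf by -0.024 ± 0.25 and Tfec by 0.037 ± 0.18. Tfeb was dim, at 3.76 to 3.99, little above the median row level of 3.63. Mitf was at 7.71, 6.56, 7.25 and 6.84 with rTF and at 6.86, 7.55, 6.99 and 6.86 with rCPS1, so its lowest array was rTF replicate 2 and its groups overlapped. Tfec was also lowest in that array, at 8.72, against 9.27 to 9.62 in the other 7.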

How the data were processed

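Total RNA of hepatic macrophages (RNeasy extraction and Affymetrix WT Plus labelling of 400 ng, as the labels' protocols state) was measured on 8 arrays. The authors deposited log2 expression values made with RMA, per the submitters' processing notes, which also name limma. Not given in the sources used here: versions, genome build, cell isolation and time after acetaminophen. RMA brings the probe values of the arrays to a common distribution, which hides any shift common to most genes. Array medians were 3.55 to 3.68, and correlations between arrays, across rows, 0.967 to 0.983.

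Of 41345 rows, 23521 had exactly 1 gene symbol. For genes with several rows, the row of highest mean was used, giving 22180 genes. The comparison used limma 3.58.1 (lmFit and eBayes, two-sided, no covariate; R 4.3.3), Benjamini-Hochberg adjusted over all genes at 0.05. The fit was also run on simulated data, whose outcome is not reported here and lends no weight to the results. SE and 95% intervals are limma's moderated ones. The median level of all array rows, 3.63, was used to mark dim genes. The number of arrays limits the precision.

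Members and lists were chosen with earlier results of these data known. Named genes were the 6 of smallest p in each class, 20 listed genes (19 measured, Atp6v0c not analysed here), those with an array apart and 3 of smallest p in each further list. Alternatives were a filter on dim genes, other variance priors, array weights, the replicate block, quantile normalization, mean rows, hepatocyte and endothelial marker covariates and each array left out.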

Additional observations from a re-analysis of the deposited data

Results flagged for a closer look

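Dixon's ratio was used to look for 1 array apart from the remaining 3 of its group. Of 118 groups of values, 7 had an array apart, against 5.9 that chance gives at 1 in 20. In rTF replicate 1, Ctsq had a log2 level of 2.12 (remaining rTF arrays 0.97 to 1.16), Ctsm at 2.41 (0.94 to 0.998) and Atp6v1c1 at 9.21 (8.81 to 8.85). In rTF replicate 2, Atp6v1h was at 7.51 (8.22 to 8.33). In rCPS1 replicate 2, Atp6v1fnb was at 6.27 (5.67 to 5.72) and Flcn at 8.55 (8.16 to 8.22), and in rCPS1 replicate 3, Ctsr was at 2.41 (1.75 to 1.81).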

How the results depend on the processing

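No gene of the 22180 and no member passed under any of 15 other settings, with a smallest adjusted p over all genes of 0.246 (without rTF replicate 1). With 1 array left out, the protease median ran from -0.095 to -0.042, the pump median from -0.031 to 0.028 and the protease minus pump difference from -0.14 to -0.060. Without Atp6v1fnb, an alternative added after seeing the data, the pump median was -0.017 and the protease minus pump difference -0.081. Of 39 named genes, 28 kept their sign throughout and 11 did not, Ctsm having the largest difference of those 11 (-0.19). Their sign changed for Ctsb (0.0059) and Ctsq (0.0061) with quantile normalization, for Atp6ap1 (0.0013), Ctsq (0.090) and Atp6v1c1 (0.041) with array weights, for Ctsc (-0.012) and Atp6v1c1 (0.016) with hepatocyte and endothelial covariates, and for Atp6v1c1 (0.010) with quantile normalization. The cause was not tested. With 1 array left out, differences ran from -0.037 to 0.014 for Ctsb, -0.087 to 0.095 for Ctsc, -0.16 to 0.062 for Ctsh, -0.11 to 0.15 for Ctsk, -0.14 to 0.037 for Ctsz, -0.15 to 0.24 for Ctsq, -0.32 to 0.17 for Ctsm, -0.018 to 0.16 for Atp6v1a, -0.048 to 0.12 for Atp6v1b2, -0.062 to 0.022 for Atp6ap1 and -0.042 to 0.092 for Atp6v1c1. Differences that kept their sign but moved by over 1.5 times included Ctsj (-0.89 to -0.14), Ctsw (-0.61 to -0.18), Ctse (-0.40 to -0.18), Ctsr (-0.42 to -0.20), Atp6v1h (0.17 to 0.44), Atp6v0d1 (-0.24 to -0.071), Atp6v0d2 (-0.42 to -0.17) and Atp6v0a2 (-0.19 to -0.043). Same-numbered arrays deviated from their group means with correlations of -0.12 to 0.025, and 0 of 8 arrays correlated best with their own number. No pairing by number was seen in these values, and with 4 arrays per group it could have been missed. With the replicate block 0 genes passed (smallest adjusted p 0.995), and the protease and pump medians stayed at -0.064 and -0.0073.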
